A study of Homo sapiens with 6 samples.

Results

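The TNF superfamily was examined in IKPRAB-36 cells, a single Ishikawa endometrial cancer line that carries transfected progesterone receptors A and B (PRA and PRB), with and without medroxyprogesterone acetate (MPA), a synthetic progestin. Members were all genes whose only annotated symbol begins with TNFSF or TNFRSF, together with TNF, LTA, LTB, CD40, CD27, FAS, FASLG, EDAR and NGFR. This gave 42 of 19775 named genes: 14 ligands, 25 receptors and 3 non-coding genes that carry the name of a neighbouring receptor gene. Each gene was read on the probe set, the group of short probes that reports 1 transcript, with the highest mean over all arrays. RNA of cells kept for 48 h without MPA (control 1 to 3) or with 1 nM MPA (MPA 1 to 3) was hybridized to 6 Affymetrix arrays. Both groups grew in medium with charcoal-stripped serum, hygromycin and neomycin, and a vehicle for the control cells is not given in the sources. Separate cultures for the 3 arrays of a group are not stated either, so the p-values cover array-to-array spread that may be technical only.

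TNF superfamily ligands are mostly trimeric membrane proteins, some of which are shed, and their receptors have cysteine-rich extracellular repeats. Receptors with a cytoplasmic death domain recruit adaptors such as FADD or TRADD and can start caspase-driven apoptosis, whereas the others recruit TRAF adaptors that activate NF-kB and JNK. Decoy receptors bind ligand without signaling fully, and in endometrium several family members are known for apoptosis and immune cell signaling.

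All values below are RMA signals, the log2 scale on which the authors deposited them, and the median of all probe sets on an array was between 5.16 and 5.28. Arrays of one group correlated at 0.987 to 0.997. MPA 3 had the lowest mean signal of the poly-A control probe sets (6.19, against 7.50 to 8.23 on the other arrays), and the 3 calls among the members described below were also made without it. The epithelial markers lay above the array medians on all arrays (5 of 5 genes, list mean 11.1 to 11.3 in control and 10.9 to 11.2 with MPA), as did 3 of 3 measured Müllerian markers. These were PAX8 (10.3 to 10.8), ESR1, which lay just above the medians (5.58 to 6.04), and PGR (progesterone receptor). The cells carry transfected PRA and PRB, and the signal of their own PGR gene was not separated. The leukocyte marker PTPRC lay between 3.50 and 3.89 on all arrays, macrophage markers had a list mean of 4.52 to 4.59 in control and 4.49 to 4.90 with MPA, and T cell markers one of 4.81 to 4.88 and 4.65 to 5.03. Of the fibroblast, endothelial and B cell markers, 2 of 4, 1 of 3 and 1 of 2 measured genes lay above the array medians. COL1A1 was among them, at 8.41 to 9.27 in control and 8.04 to 8.30 with MPA. Of the T cell markers, 1 of 3 measured genes, CD3E, also lay above the array medians on all arrays. The epithelial genes CDH1 (log2 fold change -0.76, adjusted p = 0.128) and EPCAM (-0.54, adjusted p = 0.0586) were lower on each MPA array than on each control array without passing the test. The same held for COL1A1 (-0.81, adjusted p = 0.168) and PAX8 (-0.44). The other epithelial genes went up, KRT8 by 0.22, KRT19 by 0.27 and KRT18 by 0.02. KRT8 and PGR (0.48) were higher on each MPA array than on each control array. Of all genes, 7.98% were lower and 8.96% higher without overlap between the groups. No marker of these lists was called, and their part in the results below was not tested.

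Under MPA, 2 receptor genes were lower, TNFRSF19 and TNFRSF11B, and 1 was higher, TNFRSF10D. No ligand passed the test. A call needed an adjusted p under 0.05 over all 54613 probe sets in limma and a log2 fold change of at least 0.32 in size, the fold minimum of the study's methods. The higher member was 2.38% of the 42, where 1.74% of all genes were called higher, and the 2 lower members were 4.76%, where 1.16% of all genes were called lower. The median log2 fold change was 0.02 for the members and 0.02 for all genes. In cell culture RNA, fewer cells of a type and less RNA per cell cannot be told apart.

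The members differed in level as well as in response. Of the 42, 21 lay above the array median on all arrays, 16 lay under it on all arrays and 5 crossed it. Of all 19775 genes, each on its brightest probe set, 12302 lay above the median on all arrays and 6202 under it. Ligands were mostly dim (10 of 14 under the median on every array). Above it on every array were 15 of 25 receptors, a share close to that of all genes. A signal under the median was not taken as absence, since detection calls were not used here.

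**Figure D1:**
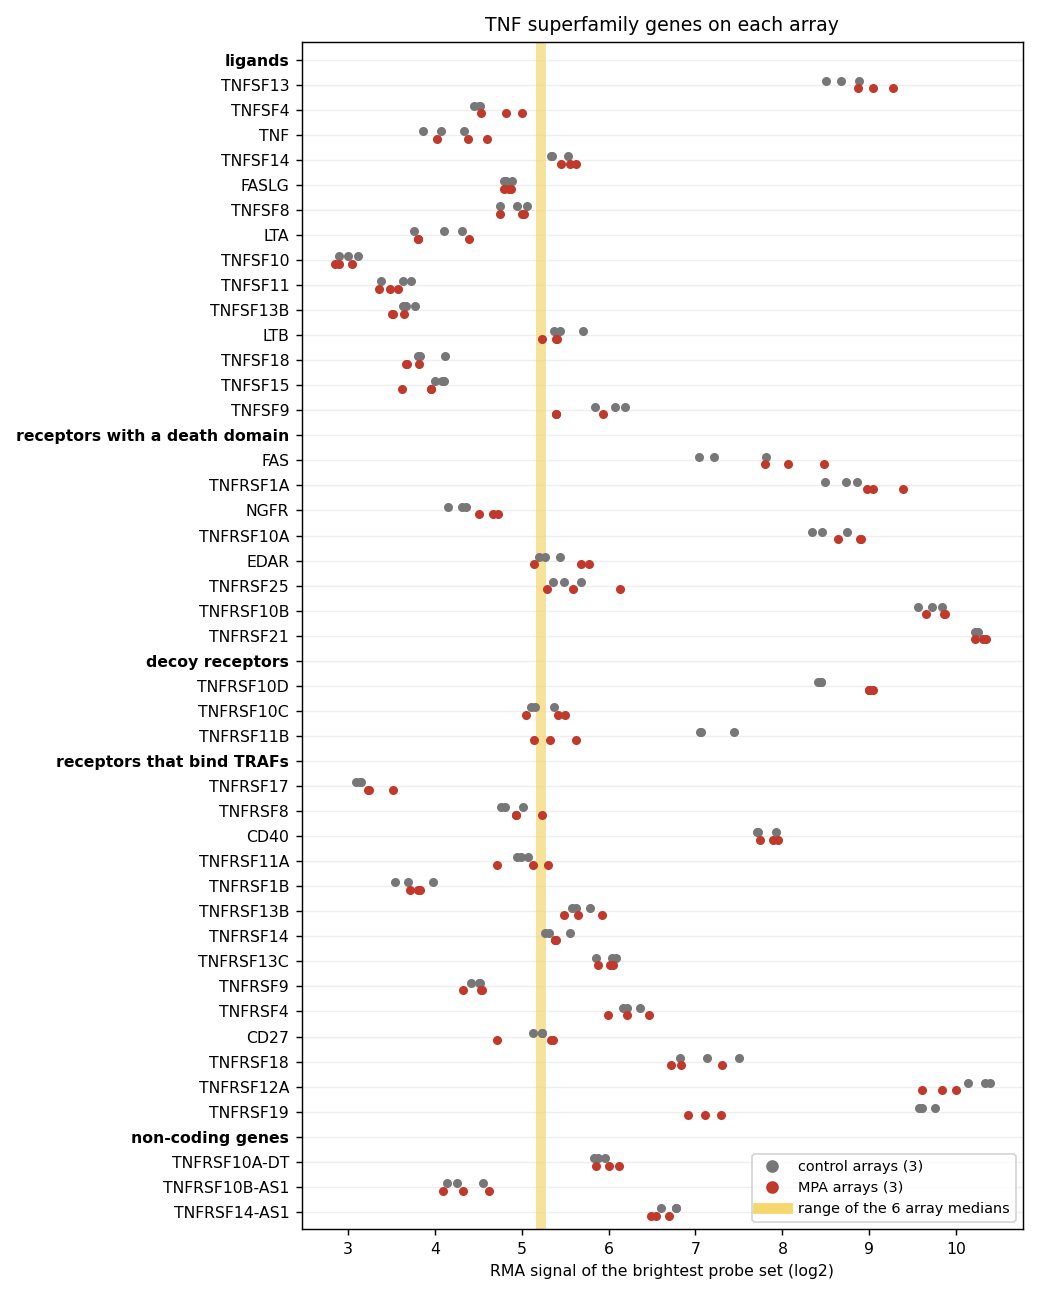
Signal of each TNF superfamily gene on each array. The horizontal axis is the RMA signal (log2) of the brightest probe set, gray points are the 3 control arrays and red points the 3 MPA arrays, and the yellow band spans the 6 array medians. TNFRSF19, TNFRSF11B and TNFRSF10D show separate gray and red points, and most ligands lie left of the band.

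TNFRSF19, also known as TROY, is a receptor that binds TRAF adaptors, has no agreed ligand and is known for its expression in epithelial stem cell compartments. Its signal was 9.61, 9.57 and 9.76 on the control arrays and 7.11, 7.29 and 6.92 on the MPA arrays. The groups were far apart, with every MPA array lower by more than 2 units than every control array. The level fell from 9.65 ± 0.10 to 7.10 ± 0.19 (SD, n = 3 arrays each), a log2 fold change of -2.54 (SE 0.13, 95% interval -2.83 to -2.25) or 5.82-fold lower (limma, adjusted p = 4.32e-05). Both other probe sets of TNFRSF19 were called lower too, from 6.76 to 4.86 (log2 fold change -1.90, adjusted p = 0.000788) and from 6.50 to 5.15 (-1.36, adjusted p = 0.00374). Both ended near or under the array medians with MPA, while the brightest probe set stayed above them on every array.

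The TNFRSF19 gene has 2 promoter entries in the RefSeq table (GRCh38.p14, chromosome 13, plus strand). The 250 bases before each start are printed, because TNFRSF19 had the largest change of the members and its entries differ in base composition. Capitals mark matches to the motifs searched.
TNFRSF19 start 1, chr13:23570162-23570411: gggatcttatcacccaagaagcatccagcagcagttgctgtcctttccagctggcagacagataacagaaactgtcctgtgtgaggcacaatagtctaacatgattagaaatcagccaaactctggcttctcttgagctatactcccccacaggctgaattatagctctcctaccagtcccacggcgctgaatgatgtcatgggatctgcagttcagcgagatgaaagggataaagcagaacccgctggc
TNFRSF19 start 2, chr13:23579110-23579359: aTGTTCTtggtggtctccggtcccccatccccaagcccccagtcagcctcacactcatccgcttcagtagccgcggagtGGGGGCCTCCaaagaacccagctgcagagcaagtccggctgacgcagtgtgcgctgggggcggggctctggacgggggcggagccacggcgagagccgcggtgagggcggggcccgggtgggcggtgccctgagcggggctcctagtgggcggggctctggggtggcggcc
The first window had 49.6% G and C and held none of the motifs. The second had 72.4% G and C and held TGTTCT, the reverse strand of the progesterone receptor half-site AGAACA, at bases -249 to -244 from the start. A full progesterone receptor element was not searched for. This second window also held GGGGGCCTCC, a match to the NF-kB consensus, at bases -171 to -162. Of all 35116 promoter windows, 12.4% held AGAACA or TGTTCT, and 6 of the 36 windows found for 27 members did (16.7%). The other letters searched on both strands were TCAAAG or CTTTGA for TCF/LEF (11.2% of all windows, 7 of 36 member windows), the NF-kB consensus (9.96% and 11 of 36) and TGANTCA for AP-1 (6.57% and 6 of 36). The searches are by letters alone, and the arrays do not tell which start was used.

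TNFRSF11B, osteoprotegerin, is a secreted decoy that binds the ligands RANKL (TNFSF11) and TRAIL (TNFSF10). Its signal was 7.06, 7.45 and 7.05 in control and 5.14, 5.63 and 5.32 with MPA. No arrays overlapped between the groups, and with MPA the gene lay about at the array medians. The level fell from 7.19 ± 0.23 to 5.36 ± 0.24 (SD, n = 3 each), a log2 fold change of -1.82 (SE 0.16, 95% interval -2.19 to -1.45) or 3.54-fold lower (limma, adjusted p = 0.000788). A second probe set fell from 6.52 to 4.98 (-1.54, adjusted p = 0.00086). The partners of osteoprotegerin were dim: TNFSF11 had a mean of 3.58 in control and 3.48 with MPA (log2 fold change -0.10, adjusted p = 0.900). TNFSF10 had a mean of 3.00 and 2.93 (-0.07, adjusted p = 0.925). RANK (TNFRSF11A), the signaling receptor of RANKL, had 5.00 and 5.05 (0.05, adjusted p = 0.975).

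TNFRSF10D, known as DcR2, binds TRAIL but has a truncated death domain. Its signal was 8.45, 8.41 and 8.45 in control and 9.04, 9.00 and 9.00 with MPA. The arrays within a group lay within 0.1 of each other, and the groups did not overlap. The level rose from 8.43 ± 0.02 to 9.01 ± 0.03 (SD, n = 3 each), a log2 fold change of 0.58 (SE 0.09, 95% interval 0.36 to 0.79) or 1.49-fold (limma, adjusted p = 0.0176). The second probe set rose from 5.93 to 6.57 (0.64, adjusted p = 0.0139). The call was lost without control 1 (adjusted p = 0.0825), control 3 (0.114), MPA 1 (0.110) or MPA 2 (0.0620), while the log2 fold change stayed between 0.56 and 0.59 with each array left out.

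TNFRSF10D lies beside the genes of the other membrane TRAIL receptors on chromosome 8, in the order TNFRSF10B, TNFRSF10C, TNFRSF10D and TNFRSF10A with no other protein-coding gene between them. TNFRSF10A (DR4), a death receptor of TRAIL, had 8.74, 8.34 and 8.45 in control and 8.91, 8.89 and 8.64 with MPA. The groups overlapped on this probe set, with a log2 fold change of 0.30 (SE 0.14, adjusted p = 0.518). Its other probe sets had 0.36 and 0.29 (adjusted p = 0.192 and 0.337), with no overlap between groups. TNFRSF10B (DR5), the second death receptor of TRAIL, was bright in both groups, at 9.71 in control and 9.79 with MPA (0.09, adjusted p = 0.910), and its other probe sets had 0.23, 0.23 and, on the dimmest, -0.40 (adjusted p = 0.669, 0.697 and 0.374). TNFRSF10C (DcR1), a decoy held in the membrane by a lipid anchor, lay at the array medians (0.10, adjusted p = 0.914). Thus 1 of these 4 neighbours passed the test. Their coding sequences are related, and binding of one transcript to another's probes was not tested.

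**Figure D2:**
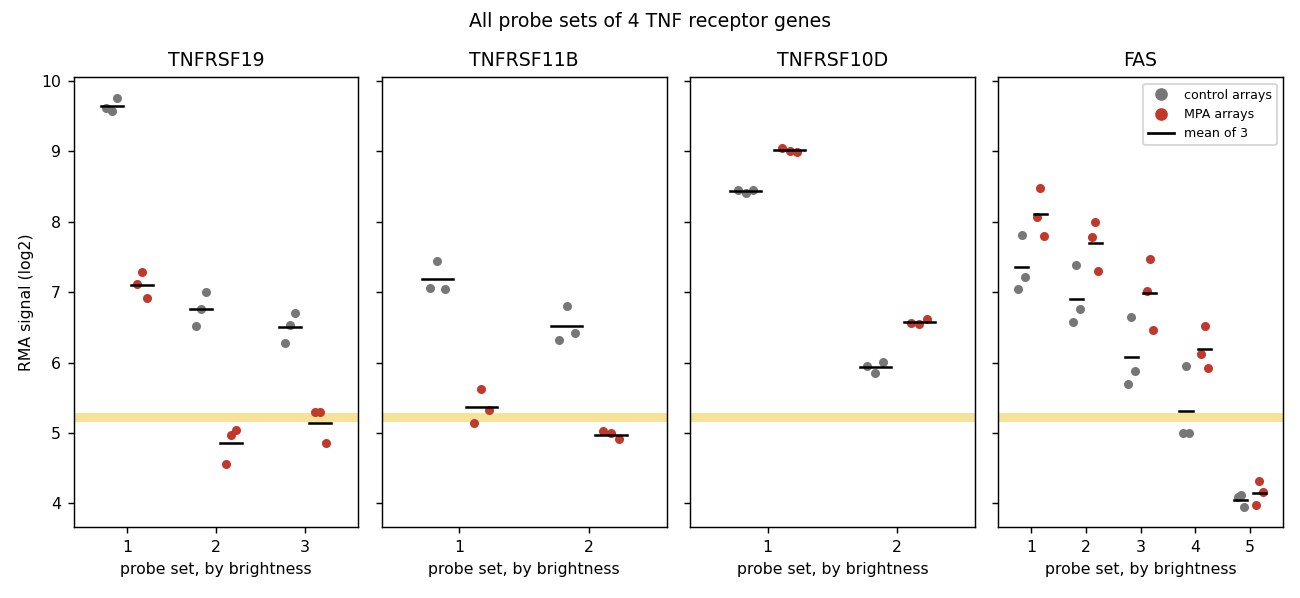
Every probe set of TNFRSF19, TNFRSF11B, TNFRSF10D and FAS, ordered from bright to dim along the horizontal axis of each panel. The vertical axis is the RMA signal (log2), points are arrays (gray for control, red for MPA), black bars are means of 3 arrays and the yellow band spans the array medians. All probe sets of the first 3 genes show separate groups. All 5 probe sets of FAS have higher MPA means, 4 of them with a wide spread and the dimmest by only 0.10.

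FAS, the death receptor for Fas ligand, had the largest positive log2 fold change of the members but did not pass. Its signal was 7.04, 7.81 and 7.21 in control and 8.07, 8.48 and 7.80 with MPA. Control 2 stood above the other control arrays and level with MPA 3, so that the groups overlapped. The means were 7.35 ± 0.40 and 8.11 ± 0.34 (SD, n = 3 each), a log2 fold change of 0.76 (SE 0.23, 95% interval 0.24 to 1.29, limma, adjusted p = 0.222). Of its 5 probe sets, 4 had values of 0.76 to 0.91 (adjusted p = 0.222 to 0.281), and the dimmest had 0.10. Without control 2, FAS was called higher (0.99, adjusted p = 0.0483), and it was also called by SAM, the test of the study's methods, where 3.1% of all genes were called higher. Its ligand FASLG lay under the array medians, at 4.84 in both groups (adjusted p = 0.995).

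All 8 receptors with a death domain had a log2 fold change above 0, with a median of 0.27 and a range of 0.06 to 0.76, and 0 of the 8 passed limma's test. Of all genes, 10942 of 19775 (55.3%) were above 0. The count above 0 was 7 of 8 when arrays were scaled by housekeeping genes, since TNFRSF21 then had -0.00. At an unadjusted p under 0.05, 3 of these 8 would pass (FAS, NGFR and TNFRSF1A), all higher, where 6.2% of all genes were higher and 5.56% lower. In either direction, 9 of all 42 members would pass, against 2327 of 19775 genes. The main TNF receptor TNFRSF1A (TNFR1) had 8.86, 8.50 and 8.74 in control and 9.04, 8.97 and 9.39 with MPA. All MPA arrays lay above all control arrays, with a log2 fold change of 0.44 (SE 0.15, adjusted p = 0.292). NGFR, the low-affinity neurotrophin receptor, had 4.31, 4.36 and 4.15 in control and 4.50, 4.66 and 4.73 with MPA. It lay under the medians of all arrays, also without overlap (0.36, SE 0.11, adjusted p = 0.247). TNFRSF21 (DR6), bright in both groups, had 10.24 and 10.29 (0.06, adjusted p = 0.936). EDAR, the ectodysplasin receptor of skin appendages, had 0.23 (adjusted p = 0.787), and TNFRSF25 (DR3), the receptor of TNFSF15, had 0.16 (adjusted p = 0.903).

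**Figure D3:**
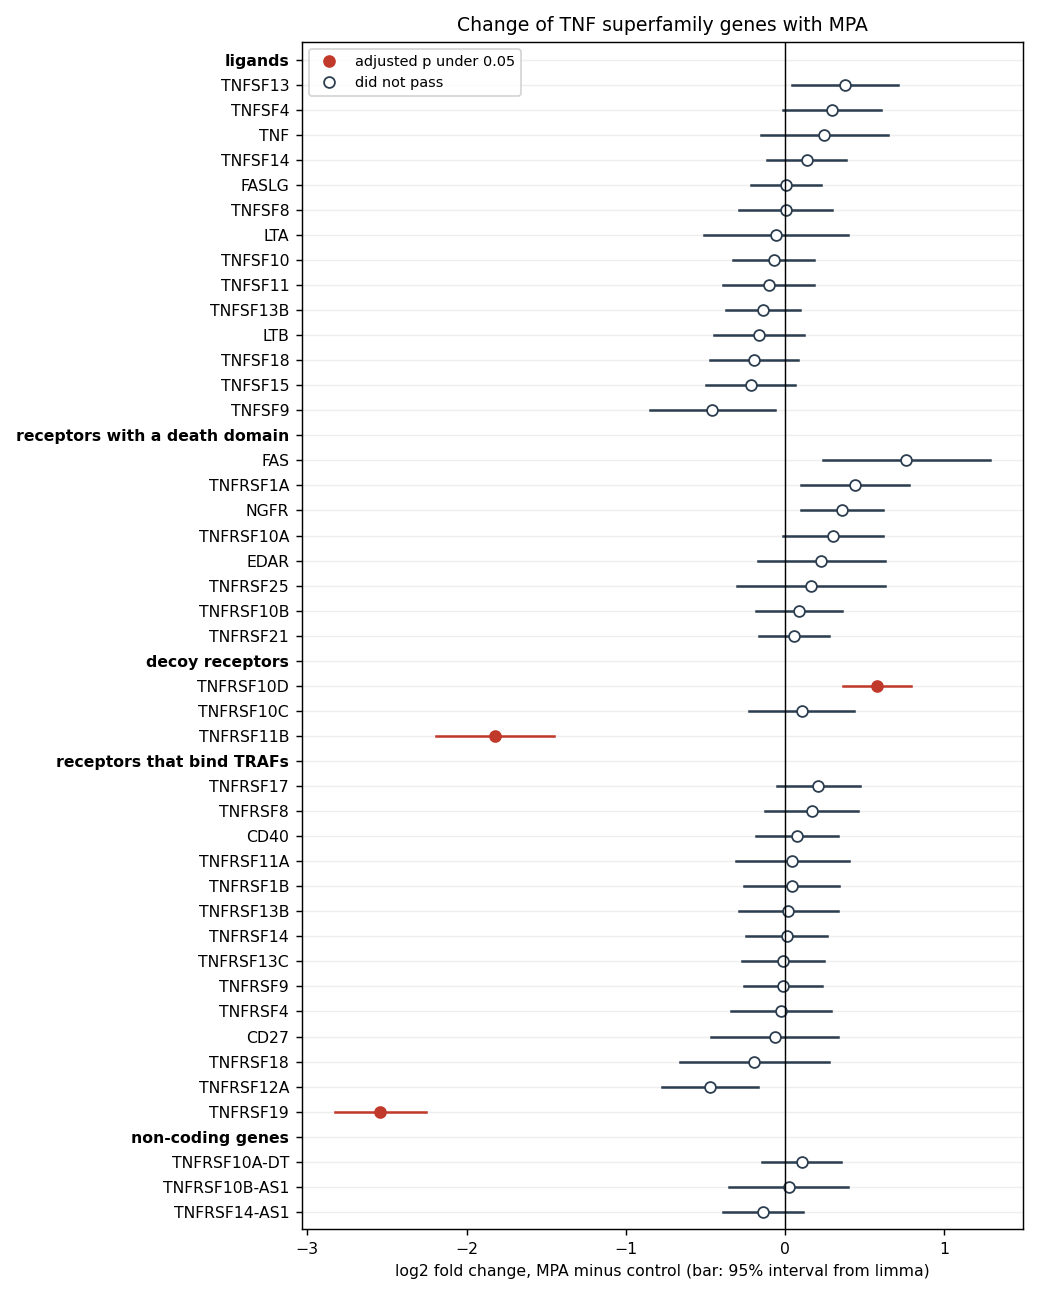
Log2 fold change of each TNF superfamily gene, MPA minus control, on the horizontal axis with bars for the 95% interval from limma, n = 3 arrays a group. Filled red points passed the test and open points did not. TNFRSF19 (-2.54) and TNFRSF11B (-1.82) lie far left, TNFRSF10D (0.58) lies right, and all 8 receptors with a death domain lie right of 0.

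Among the 14 receptors that bind TRAFs, TNFRSF19 passed and 13 did not, with a median of -0.00 over the group. TNFRSF12A (Fn14), the receptor of the ligand TWEAK, is known to be induced by growth factors and injury. It had 10.39, 10.33 and 10.13 in control and 9.84, 9.99 and 9.61 with MPA. Every MPA array lay under every control array, with a log2 fold change of -0.47 (SE 0.13, adjusted p = 0.175, the lowest of the members not called). The gene of TWEAK, TNFSF12, had no probe set of its own and was not analysed here. CD40, the costimulatory receptor of antigen-presenting cells that epithelia also express, was above the array medians on all arrays (7.79 and 7.86, adjusted p = 0.923). This held for its brightest probe set only. The other probe sets of CD40 had control means of 5.17, 4.55 and 3.71. TNFRSF18 (GITR), a T cell costimulator, had means of 7.15 and 6.96 (-0.19, adjusted p = 0.878). TNFRSF1B, the other TNF receptor, lay under the medians on all arrays (3.74 and 3.78, adjusted p = 0.972). TNFRSF17 (BCMA), a receptor of plasma cells, lay under the medians on all arrays and had 0.21 without overlap (adjusted p = 0.633). The remaining receptors of B and T cells (CD27, TNFRSF4, TNFRSF8, TNFRSF9, TNFRSF13B, TNFRSF13C and TNFRSF14) had log2 fold changes of -0.07 to 0.17.

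The 14 ligands had a median log2 fold change of -0.07 and a range of -0.46 to 0.38. TNFSF13 (APRIL), a ligand of BCMA and TACI, was one of 4 ligands above the array medians on all arrays, with TNFSF9, TNFSF14 and LTB. It had 8.88, 8.50 and 8.68 in control and 9.05, 8.87 and 9.27 with MPA. The groups overlapped narrowly, and the log2 fold change was 0.38 (SE 0.14, adjusted p = 0.393). Its probe set is of a kind that can bind related transcripts, and the signal of the TNFSF12-TNFSF13 read-through transcript was not separated. TNFSF9 (4-1BB ligand), a T cell costimulator, had 5.84, 6.07 and 6.19 in control and 5.40, 5.39 and 5.94 with MPA. MPA 3 reached the control arrays, and the log2 fold change was -0.46 (SE 0.17, adjusted p = 0.372). Its receptor TNFRSF9 lay under the medians (-0.01, adjusted p = 0.991).

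TNF, the founding ligand of the family, lay under the medians with means of 4.09 and 4.34 (0.25, adjusted p = 0.761). The lymphotoxin genes LTA and LTB flank TNF on chromosome 6 and had log2 fold changes of -0.06 and -0.16 (adjusted p = 0.975 and 0.787). TNFSF4 (OX40 ligand) had 4.45, 4.52 and 4.51 in control and 4.82, 5.01 and 4.53 with MPA. MPA 3 stood only 0.01 above the highest control array, and the difference did not pass (0.29, adjusted p = 0.518). TNFSF15 (TL1A), the ligand of DR3, lay lower on all MPA arrays, at 4.06 and 3.85 (-0.22, adjusted p = 0.657). The ligands TNFSF8, TNFSF13B, TNFSF14 and TNFSF18 had values of -0.19 to 0.14. The non-coding genes TNFRSF10A-DT, TNFRSF14-AS1 and TNFRSF10B-AS1 had values of -0.14 to 0.10.

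Groups without overlap were seen for 5 members with higher MPA arrays (11.9%, where 8.96% of all genes had them) and 4 with lower ones (9.52%, where 7.98% did). The higher ones were TNFRSF10D, TNFRSF1A, NGFR, TNFSF4 and TNFRSF17, and the lower ones TNFRSF19, TNFRSF11B, TNFRSF12A and TNFSF15. With 3 arrays against 3, the exact permutation test of a single gene cannot give a p under 0.1. Over all 84 probe sets of the members, 2 were called higher and 5 lower, where 1.21% and 0.813% of all probe sets were. These 7 belong to the 3 genes called, and 0 probe sets of other members passed. Of the 24 members with several probe sets, 14 had the same sign on all of them. For 38 of the 39 members not called, the 95% interval of the log2 fold change lay within 2-fold either way, the exception being FAS, but for only 6 did it lie within 0.32 of 0 on the log2 scale.

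**Figure D4:**
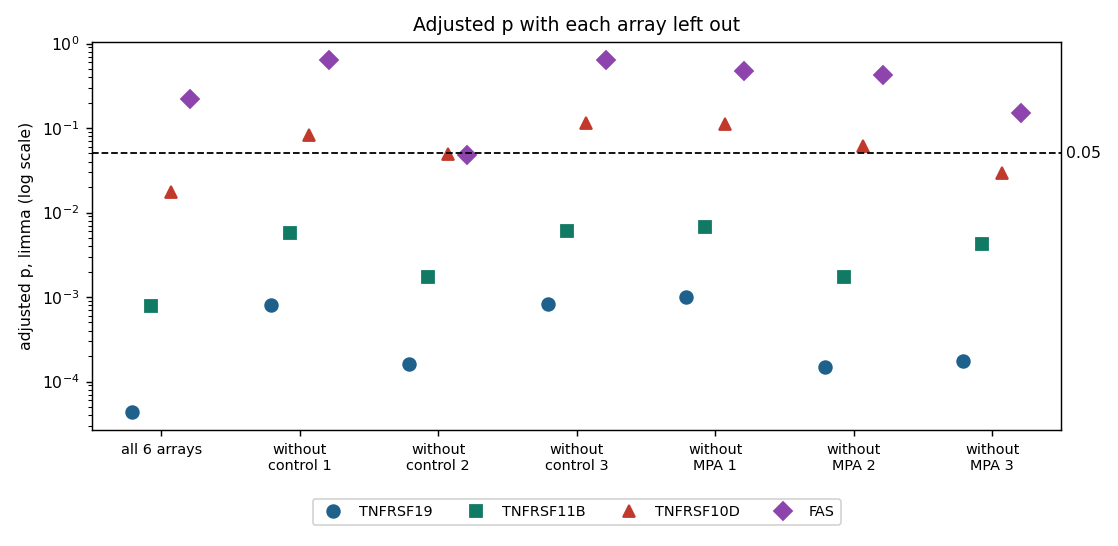
Adjusted p from limma (vertical log axis) for TNFRSF19, TNFRSF11B, TNFRSF10D and FAS with all 6 arrays and with each array left out in turn (horizontal axis). The dashed line marks 0.05. TNFRSF19 and TNFRSF11B stay under the line throughout, TNFRSF10D crosses above it without control 1, control 3, MPA 1 or MPA 2, and FAS lies under it only without control 2 (0.0483).

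The genes that carry signals of these receptors were read from a list of 90, of which 79 had a probe set of their own. Of the 79, 3 were higher and 4 lower with MPA (8.86% in either direction, where 1.74% of all genes were higher and 1.16% lower), and the median log2 fold change was 0.03. The study placed NFKBIA, TNFAIP3, CRADD, MAP3K14 and JUN under TNFR1 signaling from these same arrays, so their calls are not independent evidence. NFKBIA, which encodes the NF-kB inhibitor IkB-alpha, rose by 2.20 on the log2 scale (adjusted p = 6.17e-05), or by 1.21 over the mean of its probe sets. TNFAIP3 (A20), a ubiquitin-editing enzyme that limits TNF signaling, rose by 1.93 (adjusted p = 0.000144). CRADD, an adaptor with a death domain, rose by 0.61 (adjusted p = 0.0287), a call that was lost without any one of the 6 arrays (adjusted p = 0.0562 to 0.136).

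The chemokine gene CXCL1, inducible by TNF, had 8.80, 8.55 and 8.86 in control and 7.45, 7.54 and 7.82 with MPA. The groups were apart, and it fell by 1.14 on the log2 scale (SE 0.14, adjusted p = 0.00395), with a call in every leave-one-out fit. TNFAIP2, likewise TNF inducible, had 11.45, 11.20 and 11.51 in control and 10.32, 10.40 and 10.82 with MPA, a fall by 0.88 (SE 0.16, adjusted p = 0.0267). This call was lost without control 1 (adjusted p = 0.135), control 3 (0.152), MPA 1 (0.135) or MPA 2 (0.0955). MAP3K14 (NIK), the kinase of the alternative NF-kB pathway, fell by 0.96 (adjusted p = 0.00558). JUN, a subunit of AP-1, fell by 0.65 (adjusted p = 0.0476) and was called in only 1 of the 6 leave-one-out fits, that without MPA 3 (0.0430). The group of TNF-inducible genes in the list had 12 measured members, of which CXCL1 and TNFAIP2 were lower and 0 higher. Of all genes, 1.16% were lower and 1.74% higher. NFKBIA and TNFAIP3, both higher, had been sorted into other groups of the list, and the count depends on that sorting.

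Genes of the list that did not pass included the initiator caspase CASP8 (-0.39, adjusted p = 0.124), the death agonist BID (-0.46, adjusted p = 0.253), and the adaptors TRADD (0.36, adjusted p = 0.308) and TRAF5 (0.67, adjusted p = 0.252). None of the 5 caspase and cell death genes measured was called in the main limma test. CASP8 was called lower by SAM, where 2.13% of all genes were, but not over the mean of its probe sets (-0.16, adjusted p = 0.706). BID was called lower over the mean of its probe sets (-0.57, adjusted p = 0.0130), where 1.09% of all genes were. The sheddase ADAM17, which releases TNF from the membrane, had -0.08 (adjusted p = 0.903). LTBR, the lymphotoxin receptor, had -0.00 (adjusted p = 0.997).

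**Figure D5:**
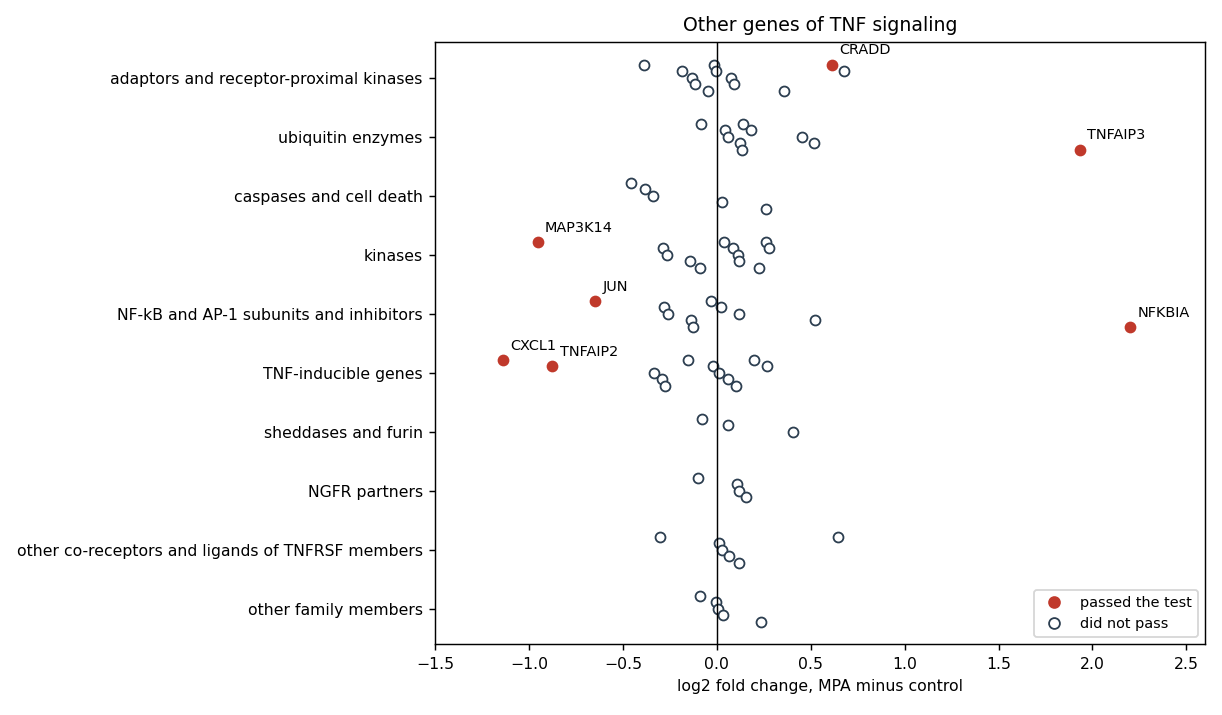
Log2 fold change of 79 other genes of TNF signaling, MPA minus control (horizontal axis), by functional group (rows). Each point is a gene, filled red where it passed the test. The genes that passed are NFKBIA, TNFAIP3 and CRADD right of 0, and CXCL1, MAP3K14, TNFAIP2 and JUN left of 0.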

How the data were processed

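IKPRAB-36 RNA was measured on Affymetrix U133 Plus arrays, 3 per group. The authors deposited log2 RMA signals (background corrected, normalized between arrays, summarized per probe set), and these were used as they stand. The RMA software version is not given in the sources. Of 54675 probe sets, 62 Affymetrix controls were left out. Names came from the platform annotation with updated symbols: 41091 probe sets had 1 symbol, while 1801 with several and 11721 with none were tested but not named. TNFSF12 and TNFRSF6B had no probe set of their own and were not analysed here. The number of arrays limits the precision.

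Groups were tested with limma 3.58.1 under R 4.3.3 (two-sided lmFit and eBayes fit without covariates), and p-values were adjusted over 54613 probe sets by Benjamini-Hochberg. SAM, the methods' own test, was run with delta 0.53, all 20 relabelings and the 55th percentile as its constant. The steps were tested on simulated data. Members were described array by array mainly where they were called in any setting, were among the 5 largest changes each way or showed no overlap between groups, and the other members were named by role. Pathway genes are those called and some that were not. Members, gene lists and motifs were chosen with earlier results of these data known, and the NF-kB motif was widened to its usual consensus after a narrower form had been counted. RefSeq promoter sequences (GRCh38.p14) matched 27 of the 42 members. Other alternatives were the treat test of limma, a variance prior with trend, no minimum or a 2-fold minimum for the change, leaving out dim probe sets, scaling to 10 housekeeping genes, quantile normalization again, a replicate block, averaging all probe sets per gene, and leaving out each array in turn.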

Additional observations from a re-analysis of the deposited data

How the results depend on the processing

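The 2 lower members, TNFRSF19 and TNFRSF11B, were called under all 16 alternatives, with log2 fold changes of -2.63 to -1.93 and -1.95 to -1.68 and adjusted p-values of at most 0.00101 and 0.00678. The count of higher members, 1 in the main analysis, was 2 by SAM and 2 with the replicate block (FAS beside TNFRSF10D), 0 at a minimum of 2-fold, 0 by the treat test (TNFRSF10D, adjusted p = 0.638), and 0 to 2 with each array left out. With the replicate block FAS had an adjusted p of 0.00558, and 2.83% of all genes were called higher and 1.91% lower. Same-numbered arrays were not treated as pairs, since their deviations from the group means correlated at -0.017, 0.523 and 0.326, and 1 of the 3 was not above 0.1. The labels do not say whether the numbers mark a shared culture or day. The higher pathway genes, 3 in the main analysis, numbered 6 by SAM (CYLD, FOS and GPC1 added), 5 with the mean of all probe sets (FOS and GPC1 added) and 6 with the replicate block (FOS, GPC1 and TRAF5 added). They numbered 4 with quantile normalization again (FOS added), where 1.64% of all genes were called higher. With each array left out they numbered 2 to 3, and the 3 without control 2 held TRAF5 in place of CRADD. The lower ones, 4 in the main analysis, numbered 1 at a minimum of 2-fold (CXCL1), 2 by the treat test (CXCL1 and MAP3K14), 5 by SAM (CASP8 added), 5 with the mean of all probe sets (BID added), and 2 to 4 with each array left out. Of all genes, 3.1% were called higher and 2.13% lower by SAM, and 1.8% and 1.09% with the mean of all probe sets. The shares were 0.946% and 0.415% at a minimum of 2-fold, and 0.89% and 0.399% by the treat test. With each array left out, 0.966% to 1.86% of all genes were called higher and 0.435% to 1.17% lower. The treat test and the minimum of 2-fold ask for larger changes by construction, and the cause of the other differences was not tested. Of 188 values under these alternatives for the 12 members called in any setting, with the largest changes or without overlap, 179 kept their direction and side of the threshold, 6 of TNFRSF10D no longer passed, 3 of FAS newly passed, and 0 changed direction. SAM, the treat test, the fold minimums, the trend prior, the replicate block and leaving out dim probe sets keep the fold change by construction. Direction could change only under the other alternatives. Among the other members, 8 with log2 fold changes of 0.00 to 0.06 turned negative when scaled by housekeeping genes, namely FASLG, TNFSF8, TNFRSF1B, TNFRSF11A, TNFRSF13B, TNFRSF14, TNFRSF21 and TNFRSF10B-AS1. Signals near the array medians, as for TNFRSF11B with MPA, or under them, as for most ligands, limit what can be read of further falls.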
